A study of Triticum aestivum with 4 samples.

Results

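The brightest wheat probe sets of the young seed were selected on their intensity: they reached at least 13 on the log2 scale on each of the 4 arrays, leaving out control probe sets and those annotated as histone H2A, histone H2B or tubulin. Of the 61115 wheat probe sets, 130 met this rule (0.213%). A further 3 rows reached the limit and were left out: 2 controls and 1 probe set of the tubulin gene TUBA. The intensities on all 4 arrays chose these probe sets, so their height is a description and is not tested. A probe set hybridises with its own strength, and intensity is therefore not a count of molecules: the 130 are the brightest probe sets, and their order need not be the order of transcript abundance.

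The samples were developing seed of bread wheat, Triticum aestivum, taken 5 days after anthesis from field-grown plants of the genotypes AC Domain and RL4452, with no treatment named in the labels. They are the parents of a mapping population, and each had 2 biological replicates with 1 Affymetrix wheat array each. A sample was a tube of seeds, and the labels do not tie the replicates to separate field rows, so p-values measure the spread between these samples only. The labels name polyA RNA as the labelled molecule. In bulk seed RNA, more cells of a type and more RNA per cell cannot be told apart.

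Shortly after anthesis the wheat grain consists mainly of maternal pericarp and nucellus around an endosperm whose nuclei divide and then form cells, and starch and gluten deposition comes later. Transcripts that stand high in dividing and growing plant tissue typically encode the machinery of protein synthesis, the cytoskeleton, chromatin and basic metabolism. Of the 26 genes named among the 130, only 5 carry a descriptive name. They are TEF1 of protein synthesis, profilin of the cytoskeleton, SAHH of metabolism, TCTP and the photosynthesis gene rbcL, which was the brightest. They are too few to say whether the 130 follow this pattern. Probe sets of a role were found by gene name, which only 2.08% of wheat probe sets carry, so others may have been missed. Named genes for seed storage proteins had 17 probe sets, with intensities up to 1313, and none of these 17 met the limit. Named genes of the maturing embryo had 9 probe sets with intensities up to 68.6, and the RAFTIN genes of the anther had 4 with up to 52.9. For starch and sugar metabolism 8 of 10 named probe sets lay above the negative control level, and the brightest value was 7524. Of these 10, 1 passed an adjusted p under 0.05, higher in RL4452 (limma), where 0.800% of all wheat probe sets did.

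**Figure D1:**
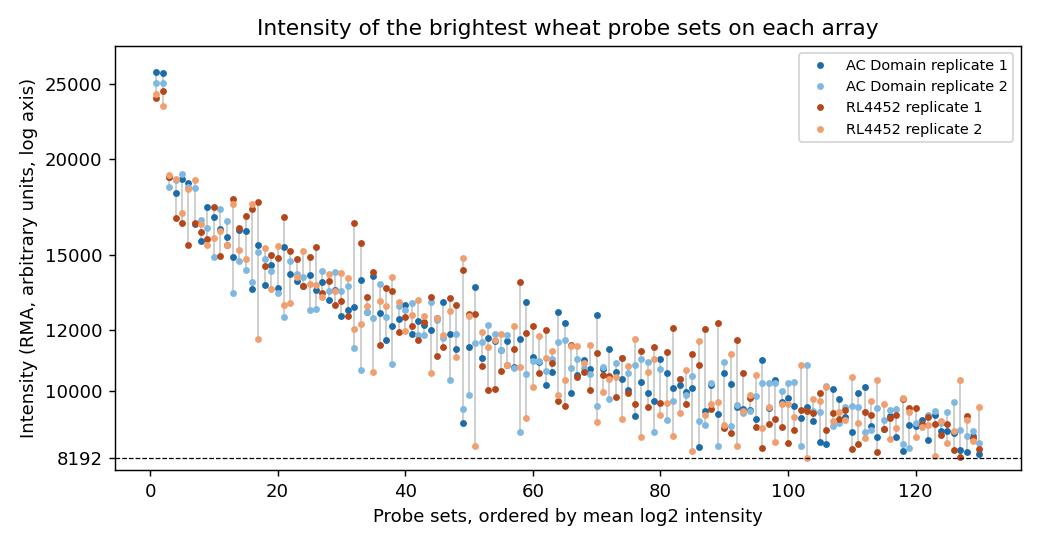
Intensity (log axis) of the 130 brightest wheat probe sets on each of the 4 arrays, ordered by mean log2 intensity, with a grey line from the lowest to the highest array and a dashed line at the limit. Values run from 8201 to 25900, and the 2 probe sets of rbcL stand apart at the upper end.

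Of the summed intensity of all wheat probe sets, the 130 held 8.86% and 8.70% in AC Domain against 9.18% and 9.06% in RL4452. Their mean log2 intensities had a median of 13.41 and ran from 13.09 to 14.60. Only 6 of the 130 reached 14 on the log2 scale on every array. Just inside the limit by its lowest array was Ta.1310.1.S1_x_at (lowest value 8201), followed by Ta.5103.1.S1_at (8228) and Ta.1924.2.S1_x_at (8246). Just outside were Ta.21881.1.S1_at (8170), Ta.28695.3.S1_x_at (8157) and Ta.23807.6.A1_x_at (8142). Another 114 wheat probe sets reached the limit on 1 to 3 arrays, which is nearly as many as reached it on all 4.

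Gene names were available for 34 of the 130 probe sets, from 26 genes. The other 96 have no name in the annotation used here. The share with a name was 26.2%, against 2.08% of all wheat probe sets, which is 1273 probe sets of 771 genes. Only 5 of the 26 genes carry a descriptive symbol or synonym (rbcl, TEF1, TCTP, SAHH and profilin), and 21 carry a LOC symbol alone.

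**Figure D2:**
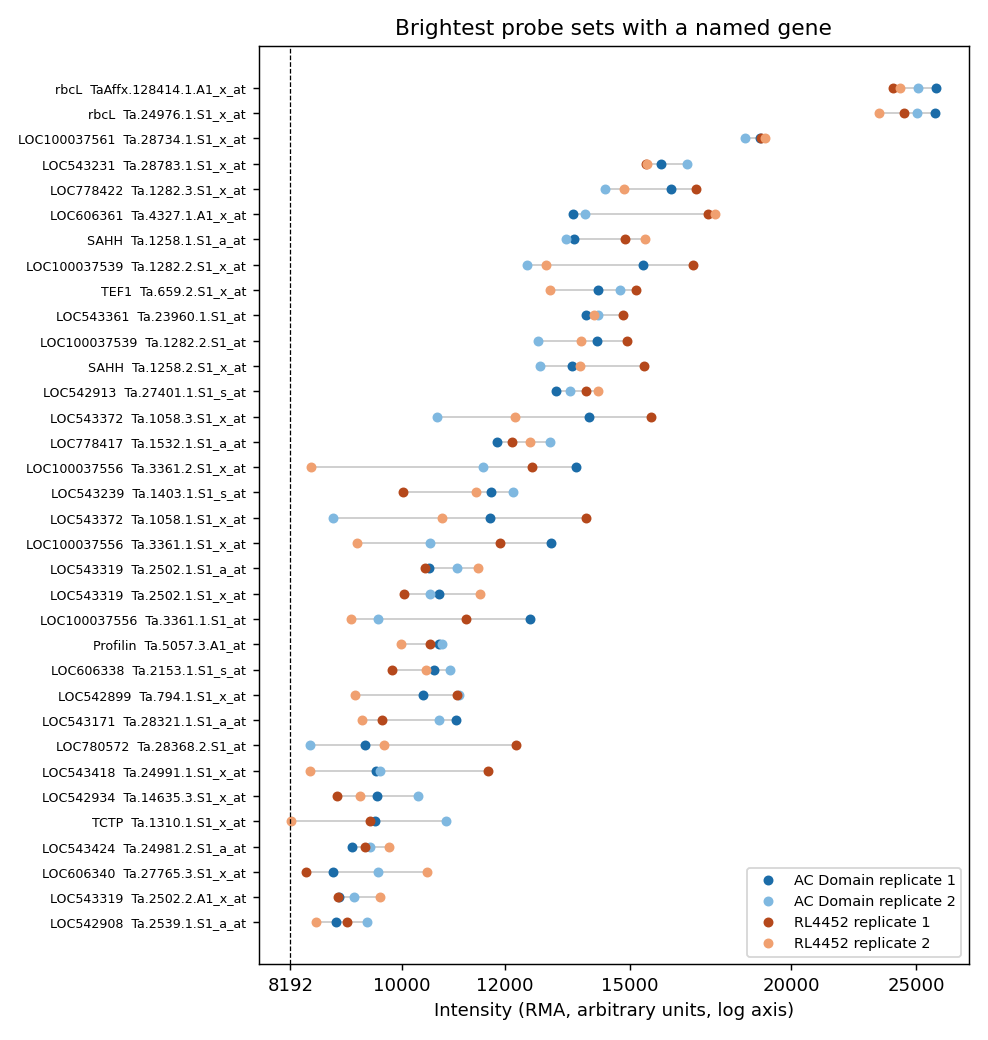
Intensity (log axis) of the 34 probe sets with a named gene on each of the 4 arrays, with grey lines from the lowest to the highest array and the limit dashed. The genotypes overlap in 19 of the 34, RL4452 is above in 6 and below in 9 (24.0% and 15.9% of all wheat probe sets), and LOC100037556 (Ta.3361.2.S1_x_at) spreads widest.

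In protein synthesis, the gene with synonym TEF1 (LOC543386), the symbol of translation elongation factor 1-alpha, which brings aminoacyl-tRNA to the ribosome, had 1 member probe set. Ta.659.2.S1_x_at had intensities of 14184 and 14742 in AC Domain against 15177 and 13003 in RL4452. The lowest and the highest value were both in RL4452, so that the genotypes overlapped (difference -0.04 ± 0.17 on the log2 scale, standard error; limma, adjusted p = 0.969). Here and below, differences are RL4452 minus AC Domain, and the adjustment runs over all 61115 probe sets. The other TEF1 probe set on the array, Ta.659.3.S1_x_at, lay below the limit, between 7320 and 8087, with a difference of 0.07. The array's control probe sets labelled ef1a gave between 15.4 and 46.5 on the same arrays. The list of translation genes had 9 probe sets of 7 genes, of which 1 was a member and none passed the threshold of an adjusted p under 0.05 in either direction, where 0.800% of all probe sets did (median difference -0.04, against 0.05 over all; limma). Those of RPL9, a ribosomal protein of the large subunit, and of the initiation factors eIF4E, Eif4B and eIF-2-beta had differences of -0.19, 0.04, -0.15 and -0.42. That of NCBP, a cap-binding protein, had 0.17. The 2 dim probe sets of RPS29, a ribosomal protein of the small subunit, had -1.84 and 0.28 (limma, adjusted p = 0.245 and 0.791).

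TCTP (LOC542949), the translationally controlled tumour protein, a conserved protein of growing cells, was the member closest to the limit. Ta.1310.1.S1_x_at had 9532 and 10816 in AC Domain against 9438 and 8201 in RL4452. Both RL4452 values were lower than both AC Domain values, as in 15.9% of all wheat probe sets. The difference of -0.21 ± 0.18 was about as large as those between replicates, 0.18 in AC Domain and -0.20 in RL4452 (limma, adjusted p = 0.782).

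SAHH encodes S-adenosylhomocysteine hydrolase, which removes the by-product of methylation reactions and so keeps methyltransferases active. Both of its probe sets on the array were members. Ta.1258.1.S1_a_at had 13589 and 13390 in AC Domain against 14861 and 15413 in RL4452. Ta.1258.2.S1_x_at had 13539 and 12778, against 15389 and 13720. In both probe sets the RL4452 arrays lay above the AC Domain arrays, as in 24.0% of all wheat probe sets. The differences were 0.17 ± 0.16 and 0.14 ± 0.17 on the log2 scale, and neither passed the threshold (limma, adjusted p = 0.804 and 0.843). A list of 4 named genes, added after the values were seen, held SAHH and the methyltransferases COMT1, PEAMT1 and PIMT. These use S-adenosylmethionine and had 1 probe set each, and the list does not cover all such enzymes. COMT1 of phenylpropanoid metabolism had a difference of -0.36, PEAMT1, which methylates phosphoethanolamine, 0.38, and PIMT, a protein repair enzyme, -0.18. Of the 5 probe sets of the list none passed the threshold (limma), where 0.800% of all probe sets did, and the 2 of SAHH were the only members.

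Profilin (LOC543315), which binds actin monomers and takes part in the turnover of actin filaments, was steady. Ta.5057.3.A1_at had 10687 and 10735 in AC Domain against 10500 and 9984 in RL4452, a range of 1.08-fold. The second probe set of the gene, Ta.5057.1.S1_x_at, was dimmer and ran from 1915 to 4245, with both of these extremes in RL4452. Steadiness of the member probe set was thus not shared by the other probe set of its gene.

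The 2 highest probe sets of all were those of rbcL (LOC100049018, synonym rbcl), the large subunit of Rubisco, which plants encode in the chloroplast genome. TaAffx.128414.1.A1_x_at had 25900 and 25092 in AC Domain against 23987 and 24269 in RL4452. Ta.24976.1.S1_x_at had 25845 and 25040, against 24470 and 23400. Both were lower on both RL4452 arrays than on either AC Domain array, as were 15.9% of all wheat probe sets. The differences were -0.08 ± 0.16 and -0.09 ± 0.16 (limma, adjusted p = 0.918 and 0.909). The other 26 probe sets of the gene gave values from 6.56 to 310. Named probe sets for photosynthesis numbered 34, of which 28 were of rbcL and only 13 lay above the negative control level. These 2 were the members, and none of the 34 passed the threshold, where 0.800% of all probe sets did (limma). The median difference was -0.04, against 0.05 over all, and it rests mostly on dim probe sets of rbcL.

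Among the genes known only by a LOC symbol, the steadiest was LOC100037561. Its probe set Ta.28734.1.S1_x_at had 18928 and 18409 in AC Domain against 18944 and 19075 in RL4452, within 1.04-fold. LOC543424 (Ta.24981.2.S1_a_at) and LOC543361 (Ta.23960.1.S1_at) each stayed within 1.07-fold, LOC543231 (Ta.28783.1.S1_x_at) and LOC542913 (Ta.27401.1.S1_s_at) within 1.08-fold. LOC543319 had 3 members, Ta.2502.1.S1_a_at, Ta.2502.1.S1_x_at and Ta.2502.2.A1_x_at, whose differences between the genotypes lay between 0.02 and 0.03. LOC542908 (Ta.2539.1.S1_a_at) lay between 8569 and 9390, LOC778417 (Ta.1532.1.S1_a_at) between 11844 and 13016, and LOC606338 (Ta.2153.1.S1_s_at) between 9824 and 10890.

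LOC606361 had the largest difference among the 34 member probe sets with a gene name. Ta.4327.1.A1_x_at had 13547 and 13845 in AC Domain against 17232 and 17471 in RL4452. The replicates were close and the genotypes apart, by 1.27-fold, but the difference of 0.34 ± 0.16 did not pass the threshold (limma, adjusted p = 0.621). LOC780572 (Ta.28368.2.S1_at) had 0.29 ± 0.20, with 12258 on the RL4452 replicate 1 array and 9682 on the RL4452 replicate 2 array against 9354 and 8487 in AC Domain. LOC543171 (-0.19), LOC543239 (-0.16) and LOC542934 (-0.13) were lower on both RL4452 arrays than on both AC Domain arrays, as were 15.9% of all wheat probe sets. None of these genes passed the threshold (limma, adjusted p = 0.768, 0.824 and 0.860). LOC542899 (-0.09), LOC543418 (0.05) and LOC606340 (0.03) had overlapping genotypes.

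For 16 of the 26 genes the array carried further probe sets outside the 130. Those of LOC542934, LOC542899 and LOC100037556 were close to the limit, with values from 6962 to 13808. Others were dim: those of LOC542908 reached 59.8, that of LOC606361 reached 49.5 and that of LOC543424 reached 212. For LOC606361 the dim probe set, Ta.4327.1.S1_at, has the strand letter S in its ID, where the member Ta.4327.1.A1_x_at has A. For LOC543418 the second probe set, Ta.10508.2.S1_a_at, read 212 and 495 in AC Domain. In RL4452 it read 649 and 1188, which puts its difference at 1.44, where the member had 0.05. For LOC543239, Ta.714.1.S1_s_at and Ta.714.1.S1_x_at reached 2124 and 2414. Their differences were 0.25 and 0.27, where the member had -0.16. The dim Ta.16866.1.S1_at of the same gene, up to 19.6, had -0.40.

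Probe set IDs of this array carry the number of a transcript cluster and of a sub-cluster, which group overlapping sequences. The 130 probe sets formed 98 clusters and 120 sub-clusters. Of the clusters, 76 had 1 member and 22 had 2 or more, which together held 54 members. In 26 clusters a member carried a gene name, and another 8 members without a name lay in such clusters. Whether these 8 measure the same gene is not given in the annotation. The 98 clusters are a count of sequence groups, not of genes or transcripts.

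The ID endings differed from those of the array as a whole. Probe sets ending in x_at, some of whose probes may also bind other sequences, were 54 of 130 (41.5%, against 11.1% of all wheat probe sets). Those ending in s_at, whose probes match several transcripts, were 14 (10.8% against 4.28%), and those ending in a_at, which cover variants of a transcript, 23 (17.7% against 5.43%). The plain ending was found in 39 (30.0% against 79.2%). Clusters with the prefix TaAffx supplied 7 members (5.38%, against 48.6% of all). In the 434 probe sets of the next band, at 12 or more on the log2 scale on every array but below 13 on at least 1, x_at made up 40.3% and TaAffx 3.23%. Signal from several related transcripts, such as copies in the 3 wheat genomes, can add up in an x_at or s_at probe set, and its part in the brightness was not tested.

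The largest cluster was Ta.659, that of TEF1, with 6 members among its 8 probe sets on the array. The brightest of them, Ta.659.4.S1_a_at, had 18049 and 18798 in AC Domain against 16781 and 18808 in RL4452. It was the brightest probe set without a name. Differences in the 6 members ran from -0.12 to 0.13, 3 higher and 3 lower in RL4452. The other bright probe sets without a name did not pass the threshold either (limma). Ta.1078.2.S1_a_at had 18801 and 19137 in AC Domain against 16496 and 17027 in RL4452, and TaAffx.115437.1.A1_s_at had 16477 and 18338 against 16505 and 18756. Ta.1342.1.S1_s_at had 17318 and 16252 against 15761 and 15486. Ta.27117.2.S1_a_at, in a cluster of 3 members, lay between 15479 and 18601, and Ta.2752.3.S1_x_at between 15658 and 16684.

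These 98 clusters had 254 other probe sets on the array, of which 224 were below the limit on every array and 55 had a mean below the negative control level. In limma 6 of the 254 passed the threshold (2.36%, against 0.800% of all probe sets), and they came from 2 clusters. Cluster Ta.10329 had 39 probe sets, of which 2 were members with differences of -0.14 and 0.01. In the same cluster Ta.10329.16.S1_at differed by -3.38 and Ta.10329.23.S1_at by 1.78. In cluster Ta.23807 the member Ta.23807.6.A1_at had a difference of 0.09, while Ta.23807.4.S1_s_at had 5014 and 5541 in AC Domain against 385 and 623 in RL4452 (difference -3.43; limma, adjusted p = 0.0180). Within these clusters, a bright probe set with a small difference stood beside dimmer ones with large differences. These were of either sign in Ta.10329. In Ta.23807 those that passed the threshold were lower in RL4452, and the highest difference outside the members was 0.54.

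The 130 probe sets were steady over the arrays. The highest array exceeded the lowest by a median of 1.15-fold, by 1.35-fold at the 90th percentile and by 1.64-fold at most. It stayed below 1.2-fold in 88 probe sets (67.7%), against 38.7% in the band below and 17.8% of all wheat probe sets. It stayed below 1.5-fold in 126. The narrowest was Ta.28707.1.S1_x_at, with 9165 and 9080 in AC Domain against 9061 and 8977 in RL4452. The limit itself bounds the values from below, since a probe set that lay under it on any array could not be a member. Probe sets that crossed the limit between arrays could fall into the band instead, so the rule itself adds wide ranges to the band. RMA usually includes a step that gives the arrays normalised together the same distribution of probe intensities. Its part in the range of the 130 was not tested.

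**Figure D3:**
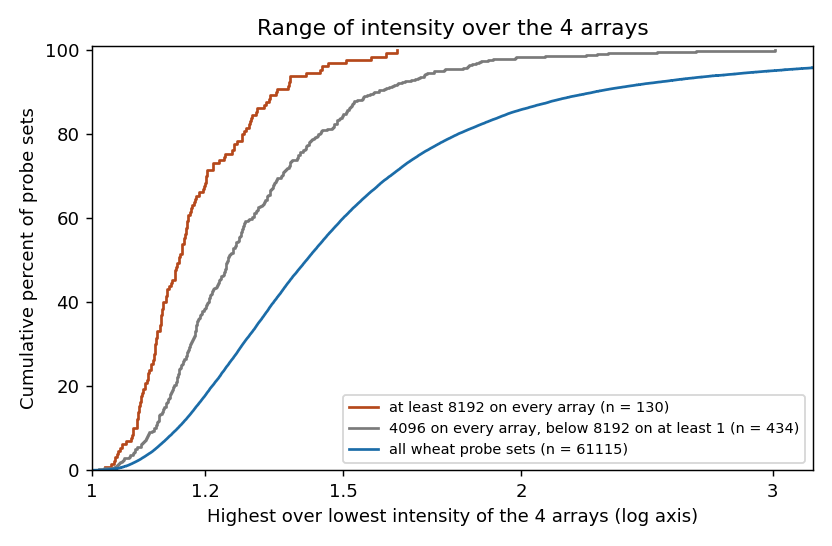
Cumulative percent of probe sets by the ratio of the highest to the lowest intensity over the 4 arrays (log axis), for the 130 brightest probe sets, the 434 of the next band and all 61115 wheat probe sets. The curve of the 130 lies to the left: 67.7% of them stayed below 1.2-fold, against 38.7% and 17.8%. The band includes probe sets that crossed the limit between arrays.

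The absolute log2 difference between replicates had a median of 0.07 over the 130 for AC Domain and 0.11 for RL4452. In the band below, which includes probe sets that crossed the limit between arrays, these values were 0.10 and 0.20. Over all wheat probe sets the medians were 0.18 and 0.28. Across the genotypes it was 0.09 for both pairings of the same replicate number, and 0.12 and 0.13 for the pairings of different numbers. The run file of the RL4452 replicate 2 array recorded an aborted wash and no wash settings, against 21 in each other run file, and its part in the wider spread of RL4452 was not tested.

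In 82 of 130 probe sets replicate 2 differed from replicate 1 in the same direction in both genotypes (63.1%, against 60.3% of all probe sets). The replicate differences correlated at r = 0.45 over the 130, which share arrays and clusters, and at r = 0.40 over all probe sets. The run files name a project, which the replicate 1 arrays of both genotypes shared and the replicate 2 arrays of both shared another. The 6 control probe sets for cre, a transcript added at hybridisation, were higher on the replicate 2 arrays in both genotypes, by a median of 0.47 in AC Domain and 0.18 in RL4452. The ubiquitin control probe set of the 5' end was lower on them, with 10327 and 8563 in AC Domain against 13091 and 6555 in RL4452. That of the 3' end had 5344 and 4368 in AC Domain against 5207 and 5000 in RL4452. On the RL4452 replicate 2 array the 5' value was thus much lower than on replicate 1, while the 3' value was close to it. The 5' value was above the 3' value on every array. The middle ubiquitin probe set fell alike in both genotypes, with 8313 and 7001 in AC Domain against 7624 and 6343 in RL4452. The ratio of the 5' and 3' ends is a common measure of RNA quality. The part of these in the replicate differences was not tested.

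Cluster Ta.1058 had 4 members, 2 of them of LOC543372, and all 4 were lower on replicate 2. Ta.1058.1.S1_x_at had 11699 on the AC Domain replicate 1 array and 8847 on replicate 2, and 13869 and 10735 in RL4452. The replicate differences of -0.40 and -0.37 exceeded the genotype difference of 0.26 ± 0.23. Ta.1058.3.S1_x_at behaved alike, with -0.39 and -0.35, and a further probe set of the gene outside the 130, TaAffx.120885.1.S1_s_at, had 8854 and 5163 in AC Domain and 11875 and 5580 in RL4452. Within each replicate number, RL4452 was above AC Domain in all 4 members of the cluster.

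LOC100037556 had 3 members in cluster Ta.3361, all lower on replicate 2 in both genotypes. Ta.3361.2.S1_x_at had 13642 and 11541 in AC Domain and 12601 and 8495 in RL4452, a range of 1.61-fold, and Ta.3361.1.S1_at had 12564 and 9576 against 11197 and 9126. Its 3 differences between genotypes, from -0.28 to -0.12, were each lower in RL4452 within both replicate numbers. Ta.3361.3.S1_a_at, a further probe set of this gene, fell outside the 130 by a value of 8076 on the RL4452 replicate 2 array alone.

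Cluster Ta.1282 held 2 members of LOC100037539 and 1 of LOC778422, all 3 lower on replicate 2. Ta.1282.2.S1_x_at of LOC100037539 had 15360 and 12483 in AC Domain and 16792 and 12932 in RL4452. A probe set of LTP3, a lipid transfer protein of the plant surface layers, belongs to the same cluster. Ta.1282.1.S1_x_at (LTP3) had 13090 and 9370 in AC Domain and 14689 and 5536 in RL4452, and so reached the limit on 3 of the 4 arrays. Cluster Ta.912 ran the other way: Ta.912.2.S1_at had 9289 and 10823 in AC Domain and 9617 and 11673 in RL4452. Ta.912.2.S1_x_at, of the same sub-cluster, had 8542 and 10143 against 8900 and 10140. Among members without a name, Ta.1130.1.S1_a_at followed these in the gap between AC Domain replicates (11339 and 9773).

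**Figure D4:**
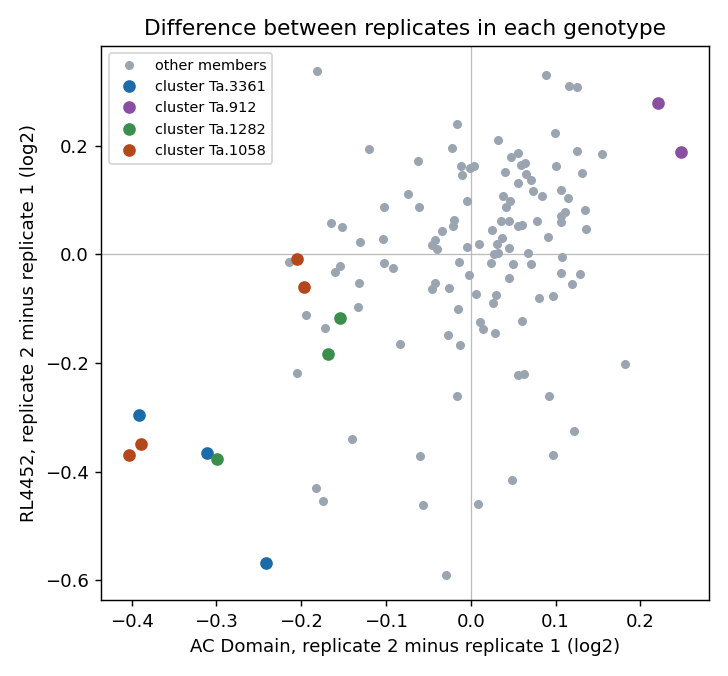
Replicate 2 minus replicate 1 (log2) of the 130 probe sets, AC Domain on the horizontal axis and RL4452 on the vertical axis, with 4 clusters coloured. The coloured clusters were picked from those with 2 or more members, as the largest shifts with the same sign in both genotypes in every member. Clusters Ta.1058, Ta.3361 and Ta.1282 lie below 0 in both genotypes and Ta.912 above 0 in both, and this shared direction follows from the choice.

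Among members without a name, Ta.2752.2.S1_x_at, Ta.28331.1.S1_at and Ta.4327.2.S1_at had the widest gaps between RL4452 replicates. Ta.2752.2.S1_x_at had 17603 and 11690 in RL4452, where AC Domain had 15470 and 15154. Ta.28331.1.S1_at had 12063 and 8758 against 10094 and 9710. Ta.4327.2.S1_at, in the cluster of LOC606361, had 16493 and 12032 against 12839 and 11382. Its difference between genotypes was 0.36 within replicate 1 and 0.08 within replicate 2, where Ta.4327.1.A1_x_at had 0.35 and 0.34.

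Between genotypes none of the 130 probe sets passed the threshold in limma, against 489 of all wheat probe sets, or 0.800%. At an unadjusted p under 0.05 there was 1 (0.769%), where all probe sets gave 9.16%. This count depended on the fit: it was 10 of the 130 with a prior that follows the intensity, and 10 with a constant of 16 added before the log2. The shares of all probe sets in those fits were not taken, so these counts have no background beside them. Differences ran from -0.31 to 0.65 on the log2 scale, with a median of 0.01 and a median absolute size of 0.08, against 0.05 and 0.19 over all probe sets. A probe set that reached the limit in only 1 genotype could not be a member. In 11 wheat probe sets both AC Domain arrays and neither RL4452 array reached the limit, and in 6 the reverse held. None of these 17 passed the threshold either, and 4 had an unadjusted p under 0.05 (limma). These 17 were chosen by a gap between the genotypes, so their p-values are a description and not a test.

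As deposited, 69 of the 130 were higher and 61 lower in RL4452. After centring each array on its median, 39 of 128 were higher, and after quantile normalisation 60 of 131. The majority direction thus turned with the scaling. Both RL4452 arrays lay above both AC Domain arrays in 26 probe sets (20.0%, against 24.0% of all), and below both in 30 (23.1%, against 15.9%). Among the 22 clusters with 2 or more members, the differences had the same sign in all members in 16. Only 6 of these clusters had 3 or more members, and probe sets of a cluster come from overlapping sequences. The count is therefore a description, and the share over all clusters of the array was not taken.

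Ta.6504.1.S1_at, which has no gene name here, had the largest difference. Its intensity was 9097 and 9484 in AC Domain against 14341 and 14883 in RL4452. The gap between genotypes, 1.57-fold, was far wider than that between replicates, and it was 0.66 and 0.65 on the log2 scale within replicates 1 and 2. The difference of 0.65 ± 0.16 did not pass the threshold (limma, adjusted p = 0.276). It passed with a prior that follows the intensity (adjusted p = 0.0490), where the median standard error of the 130 was 0.11 in place of 0.16. Its adjusted p was between 0.148 and 1.00 in the other alternatives.

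**Figure D5:**
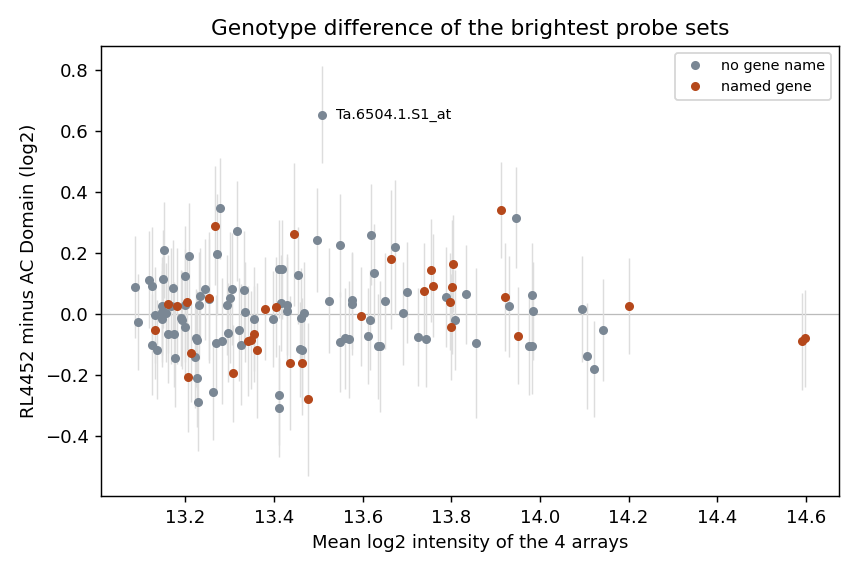
Difference RL4452 minus AC Domain (log2) of the 130 probe sets against their mean log2 intensity, with bars for the standard error of the limma fit and named genes in orange. Ta.6504.1.S1_at stands apart at 0.65, and the others lie between -0.31 and 0.35.

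The next differences were about as large in either direction. Ta.4900.1.S1_at had 8465 and 9162 in AC Domain against 10801 and 11613 in RL4452 (0.35 ± 0.16; limma, adjusted p = 0.631). Ta.23013.3.S1_s_at had 14915 and 13400 against 17741 and 17474, a difference of 0.32. In the other direction, Ta.1316.1.S1_a_at had 12680 and 11580 against 9720 and 9876 (-0.31 ± 0.16; limma, adjusted p = 0.659). Both probe sets of cluster Ta.30802 were lower in RL4452: Ta.30802.1.A1_x_at had 10988 and 10234 against 8430 and 8959, and Ta.30802.1.A1_at had 12242 and 11634 against 9557 and 10328. In each of these 5 probe sets, which were chosen for their large differences, the genotypes did not overlap. Over all wheat probe sets, RL4452 lay above on both arrays in 24.0% and below in 15.9%.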

How the data were processed

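The deposited values are probe set intensities on a linear scale, from RMA, per the submitters' processing notes, with no version. The set of arrays in that normalisation is not stated. The instrument run files were read for the project and the wash settings. Intensities were log2-transformed without further normalisation. Without the 175 control probe sets, all 61115 wheat probe sets were fitted with limma 3.58.1 in R 4.3.3 (lmFit, eBayes, genotype as the only factor, two-sided, Benjamini-Hochberg adjusted p under 0.05). The fit had 2 residual and 2.97 prior degrees of freedom. Precision is limited by the number of arrays. The script was tested on simulated data. An exact permutation test of 2 against 2 arrays could not pass the threshold (smallest two-sided p 0.333). The negative control level is the 95th percentile of 23 negative control probe sets (4.48 on the log2 scale).

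Names came from a platform annotation, with symbols taken from RefSeq by gene identifier (assembly IWGSC CS RefSeq v2.1, 770 of 771 genes found, no coordinates used). Sequences of probes, promoters and proteins were not used here. The members and lists were chosen with earlier results of these data known, and the list of methylation genes was added after the values were seen. Named are all members with a gene, and of the others the 6 brightest, the 3 largest differences per direction, the 3 widest replicate gaps per genotype, the 3 nearest to the limit on each side, and the clusters with most members. Probe sets outside the 130, Ta.28707.1.S1_x_at and clusters Ta.912, Ta.10329 and Ta.23807 were picked out after their values were seen. The project shared by same-numbered arrays is where the pairing comes from (deviations from the genotype means correlated at r = 0.40). Alternatives were the limit, the ID endings, the scaling, the replicate block, the prior, a filter on dim probe sets, an added constant and each array left out.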

Additional observations from a re-analysis of the deposited data

How the results depend on the processing

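Of the 130 probe sets, limma called 0, and 1 was under 0.05 before adjustment, against 0.800% and 9.16% of all probe sets. In the alternative fits the shares of all probe sets were not taken. With a prior that follows the intensity 1 probe set, Ta.6504.1.S1_at, passed, and in the other alternatives 0 of the probe sets chosen there did. At an unadjusted p under 0.05 there were 10 of the 130 with that prior and 10 with 16 added, 19 of 564 and 4 of 177 with the lower limit and the limit on the mean, and 0 to 2 in the others. With the replicate block 0 passed, the median difference was 0.007 and the smallest adjusted p 0.233, so that the block changed no call. With each array left out, the other genotype alone gave the spread, and the lone array was assumed to vary like it. The 0 calls there, with smallest adjusted p from 0.190 to 1.00, are no sign of stability. The median difference lay between -0.011 and 0.004. The number of probe sets at the limit on the 3 arrays lay between 133 and 144 and that of clusters between 99 and 105.

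The limit set the counts and the spread. With 12 on the log2 scale on each array, 564 probe sets in 378 clusters had a median log2 level of 12.72 and a median replicate difference of 0.165 in RL4452. With 14, 6 probe sets in 6 clusters had a level of 14.17 and replicate differences of 0.0457 in AC Domain and 0.0551 in RL4452. With the limit on the mean of the arrays the level was 13.28. Without x_at and s_at endings 62 probe sets in 60 clusters were left. After median centring the median difference was -0.049 and after quantile normalisation -0.008. Of 57 named probe sets, 29 kept the sign of their difference in all 10 alternative fits. The largest numbers of changed signs were 15, without RL4452 replicate 2, and 13, after median centring, and none of these probe sets had passed the threshold.

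Only 2 arrays per genotype were available, and the common prior, estimated over dim and bright probe sets together, sets the standard errors of bright ones.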
